A study of Mus musculus with 6 samples.

Results

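Fc receptors bind the constant part of antibodies, and the 6 genes described here encode the main ones of mouse myeloid cells. Fcgr1, Fcgr3 and Fcgr4 encode activating IgG receptors, which depend on the common gamma chain encoded by Fcer1g for expression at the cell surface and for signalling through its activation motif. Fcgr2b encodes the inhibitory IgG receptor, whose own motif recruits phosphatases that oppose the activating receptors, and Fcgrt encodes the heavy chain of the neonatal receptor FcRn, which salvages IgG and albumin from degradation inside the cell. In macrophages and dendritic cells these receptors drive the uptake of antibody-coated cells and immune complexes, and the balance of activating to inhibitory receptors sets the threshold of that response. The genes were taken by symbol from the deposited expression table, and 6 of 6 were found among its 27634 genes. All 6 passed the filter on low counts in every fit, so none was judged on few reads.

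The 6 RNA-seq libraries come from cells labelled as cancer-associated dendritic cells, and the mice were C57BL/6 animals in which ID8-Defb29/Vegf-a tumours had grown for 32 to 38 days. ID8 is a murine line of ovarian carcinoma, here expressing the genes Defb29 and Vegf-a. All mice received 100 µg of siRNA in nanocomplexes with rhodamine-conjugated polyethylenimine, a carrier polymer taken up by phagocytic cells. Control mice got a non-targeting siRNA (NT) and the others an siRNA against Satb1, which encodes a chromatin organiser. In the experiment labelled with strong downregulation of Satb1 (the high experiment) there were 2 libraries with NT and 2 with Satb1 siRNA, and in the experiment labelled with low downregulation (the low experiment) there was 1 library of each. The labels do not say how the cells were isolated, whether animals were pooled, or whether replicates are separate mice. An siRNA given to whole animals can act in any cell that takes it up, so the groups are not a model of loss in 1 cell type.

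Total counts ran from 24553454 to 71272720 per library. The repeats of each high group differed by little more than counting noise (a chi-square of 1.202 per gene between the NT repeats and of 1.37 between the Satb1 siRNA repeats), so each group was counted as 1 sample, and every p-value below compares libraries and not conditions. Satb1 was at 16.6 and 15.3 CPM (counts scaled to a common library size, with TMM factors over the 6 libraries) in the high NT libraries, at 3.11 and 3.57 CPM with Satb1 siRNA, and at 8.91 (NT) and 7.44 CPM (Satb1 siRNA) in the low experiment. The low values rest on 170 and 165 counts. By library size alone they were 6.29 (NT) and 6.72 CPM (Satb1 siRNA), so the direction of that difference depended on the scaling. The labelled cell type was checked against its markers. Of the classical dendritic cell genes, Flt3 was at 0.874 and 1.05 CPM, Zbtb46 at 4.78 and 4.93 CPM and Itgax at 20.3 and 20.1 CPM in the high NT libraries, against 425 and 425 CPM of Csf1r and 278 and 283 CPM of Cd68, which mark macrophages. In the low NT and Satb1 siRNA libraries Flt3 was at 16.5 and 41.6 CPM, Zbtb46 at 9.81 and 24.5 CPM and Itgax at 160 and 273 CPM, against 1730 and 955 CPM of Csf1r and 1370 and 1010 CPM of Cd68. Csf1r and Cd68 were thus above Flt3, Zbtb46 and Itgax in the high NT and both low libraries. As a ratio, the margin over Flt3 and Itgax was narrower in both low libraries. The margin over Zbtb46 was wider in the low NT library and narrower in the low Satb1 siRNA library. H2-Ab1, on the same list of dendritic cell markers, was at 176 and 176 CPM in the high NT libraries, below both macrophage genes. In the low experiment it was at 1710 (NT) and 1640 CPM (Satb1 siRNA), close to or above Csf1r and above Cd68. In these bulk samples, fewer cells of a type and less RNA per cell cannot be told apart.

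Fcgr2b, Fcgr4 and Fcgr3 lie next to each other in this order on mouse chromosome 1 in the RefSeq annotation (GRCm38.p6), Fcer1g lies farther along the same chromosome, Fcgr1 is on chromosome 3 and Fcgrt on chromosome 7. The 250 bases before the annotated start of 4 of the genes are shown here, since Fcgr1, Fcgr3 and Fcgr4 moved together in the high experiment and Fcgr2b, their neighbour or counterpart, did not. They are given 5′ to 3′ on the strand of the gene, from RefSeq on GRCm38.p6, a later build than the mm9 of the counts. Capitals mark 2 motifs, searched on both strands: GAGGAA (or its complement TTCCTC), the core bound by the myeloid factor PU.1, and TTCNNNGAA, the pattern of an interferon gamma activated site.
Fcgr1, chr3:96293970-96294219, minus strand: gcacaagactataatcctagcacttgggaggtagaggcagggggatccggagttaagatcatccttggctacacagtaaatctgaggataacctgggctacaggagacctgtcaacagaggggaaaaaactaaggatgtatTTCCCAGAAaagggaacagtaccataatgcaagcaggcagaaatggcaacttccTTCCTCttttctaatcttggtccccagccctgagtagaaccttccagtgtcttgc
Fcgr3, chr1:171059404-171059653, minus strand: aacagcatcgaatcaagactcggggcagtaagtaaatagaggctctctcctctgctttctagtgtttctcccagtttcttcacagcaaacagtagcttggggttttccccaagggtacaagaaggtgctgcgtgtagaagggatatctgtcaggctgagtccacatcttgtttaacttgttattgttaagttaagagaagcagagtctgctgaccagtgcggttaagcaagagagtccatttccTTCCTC
Fcgr4, chr1:171018676-171018925, plus strand: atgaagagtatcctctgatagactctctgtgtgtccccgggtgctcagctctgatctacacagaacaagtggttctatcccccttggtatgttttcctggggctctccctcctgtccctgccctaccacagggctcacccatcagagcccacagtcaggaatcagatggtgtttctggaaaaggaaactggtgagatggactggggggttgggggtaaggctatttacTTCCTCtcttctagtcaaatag
Fcgr2b, chr1:170976072-170976321, minus strand: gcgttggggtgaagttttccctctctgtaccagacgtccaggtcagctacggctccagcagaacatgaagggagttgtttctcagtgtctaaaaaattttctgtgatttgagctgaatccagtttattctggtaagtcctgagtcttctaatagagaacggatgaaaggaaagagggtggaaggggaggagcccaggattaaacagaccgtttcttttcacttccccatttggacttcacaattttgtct

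The GAGGAA core stood 55, 6 and 22 bases before the start of Fcgr1, Fcgr3 and Fcgr4 (for Fcgr3, before the more upstream of its 2 annotated starts), counted from the 5′ end of the match, and was found in 3 of the 6 members. It was found in 23.3% of 32851 promoters cut to the same length. The TTCNNNGAA pattern was present in Fcgr1 alone, 109 bases before the start, and in 7.02% of all promoters. Neither pattern was found in the windows of Fcgr2b, Fcer1g and Fcgrt. Such matches describe the letters of these windows and are not evidence of binding.

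The activating receptor genes fell in the libraries with strong Satb1 knockdown by 17.6% to 23.3%. Fcgr1 encodes FcγRI, the high affinity IgG receptor. It stood at 197 and 196 CPM with NT siRNA in the high experiment, against 150 and 150 CPM with Satb1 siRNA. The gene fell by 0.38 on the log2 scale (SE 0.017 between repeats), a change of -23.3% (edgeR quasi-likelihood test with Benjamini-Hochberg adjustment over all genes, adjusted p = 8.29e-33). Fcgr3 encodes FcγRIII, a low affinity receptor for immune complexes. It stood at 837 and 836 CPM with NT and at 648 and 640 CPM with Satb1 siRNA. Its log2 fold change was -0.37 (SE 0.0040 between repeats, below the 0.0067 of counting alone; edgeR, adjusted p = 1.02e-70). Fcgr4 encodes FcγRIV, a receptor of intermediate affinity, and it went from 222 and 219 CPM to 183 and 178 CPM. This was the smallest of the 3 falls, at -0.28 on the log2 scale (SE 0.015; edgeR, adjusted p = 1.70e-26), or -17.6%.

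Fcer1g, the signalling partner of these 3 chains, fell with them. Its level went from 128 and 130 CPM to 95.3 and 94.7 CPM. The log2 fold change of -0.44 (SE 0.021; edgeR, adjusted p = 2.73e-30), or -26.3%, was larger than that of any of its partners. The inhibitory Fcgr2b was not called. It was at 267 and 271 CPM with NT and at 265 and 263 CPM with Satb1 siRNA. Its log2 fold change was -0.02 (SE 0.011; edgeR, adjusted p = 0.0944), and its sign depended on scaling: with library size alone it was 0.033 (edgeR, adjusted p = 0.0109). Fcgrt went the other way. It rose from 77.6 and 80.7 CPM to 103 and 101 CPM, by 0.37 on the log2 scale (SE 0.023; edgeR, adjusted p = 9.32e-24), or 29.4%.

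In all, 4 of the 6 genes fell, against 33.2% of the 20242 genes tested, and 1 of 6 rose, against 32.8%. The median over the 6 was -0.32, beside 0.01 for all genes tested. With 66.0% of all genes called in near-identical libraries, a call by itself says little about these 6, and the size and order of the changes are the more informative values. When repeats were summed to 1 sample per group and the experiment entered as a term, edgeR called 0 of the 6 (adjusted p = 0.483 to 0.993; 1 of them, Fcer1g, at an unadjusted p under 0.05), with Fcgr2b at -0.46 on the log2 scale, and DESeq2 called 0 as well (1, again Fcer1g, at an unadjusted p under 0.05). Over all genes that fit called 6 in edgeR and 220 in DESeq2.

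**Figure D1:**
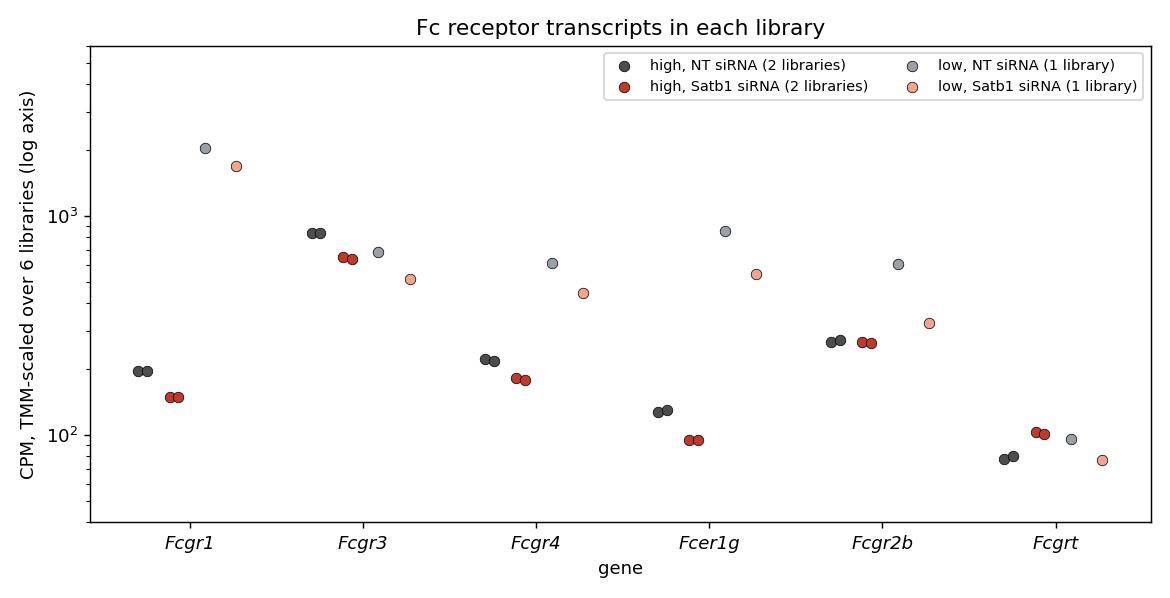
Level of each Fc receptor gene in each library, as TMM-scaled CPM on a log axis; each point is 1 library. In the high experiment the Satb1 siRNA points lie below the NT points for Fcgr1, Fcgr3, Fcgr4 and Fcer1g, almost level with them for Fcgr2b (265 and 263 against 267 and 271 CPM), and above them for Fcgrt (103 and 101 against 77.6 and 80.7 CPM).

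In the low experiment, where Satb1 itself differed little, all 6 genes were lower in the Satb1 siRNA library than the typical gene, and the inhibitory Fcgr2b was the lowest. This comparison has 1 library per group and no test. TMM and library-size scaling differ strongly for these libraries: the median of all 13626 genes whose mean log2 CPM was at least 0 was -0.06 with TMM and 0.30 with library size alone. Log2 ratios are therefore given relative to that median, which does not depend on the scaling. Fcgr2b counts were 11564 with NT and 7199 with Satb1 siRNA, or 606 and 325 CPM, and the log2 ratio was -0.84 relative to the median gene. Fcer1g was at 859 and 546 CPM (-0.59 relative to the median), Fcgr4 at 612 and 445 CPM (-0.40), and Fcgr3 at 687 and 519 CPM (-0.34). Fcgrt, at 96.0 and 76.7 CPM (-0.26), and Fcgr1, at 2050 and 1690 CPM (-0.21), came last.

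Before that subtraction, with TMM, the log2 ratio of Fcgr2b was -0.90 (95% counting interval -0.94 to -0.86) and that of Fcgr1 was -0.27 (-0.30 to -0.25). The intervals cover counting error only. With library size alone the signs of Fcgr1 and Fcgrt turned, to 0.081 and 0.032. Only Fcgr2b and Fcer1g were at least 1.5-fold lower with TMM, 2 of 6 against 12.2% of all genes, and 0 were at least 1.5-fold higher, against 15.5%. With library size alone neither was, at -0.55 and -0.30, and the share of all genes was not computed for that scaling.

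**Figure D2:**
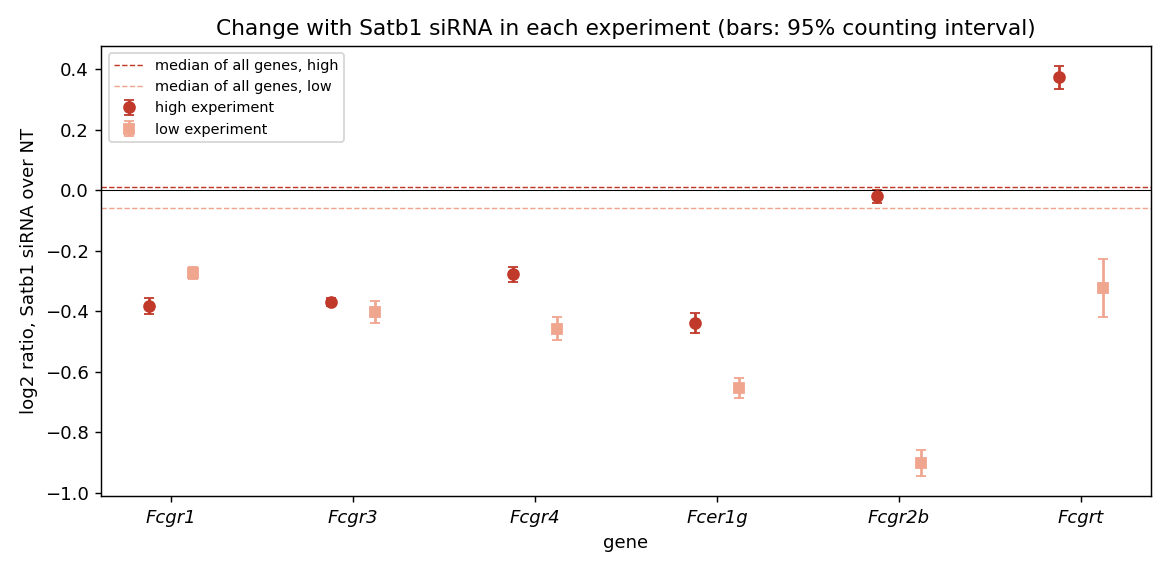
Log2 ratio of Satb1 siRNA over NT for each gene in the high (circles, 2 libraries per siRNA) and the low experiment (squares, 1 library per siRNA), TMM-scaled; bars are 95% counting intervals and dashed lines the medians of all genes (0.01 and -0.06). Fcgr2b lies at -0.02 in the high and -0.90 in the low experiment, and Fcgrt at 0.37 and -0.32.

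The siRNA effect differed between the experiments most for Fcgr2b and Fcgrt. The difference (low minus high, log2) was -0.88 for Fcgr2b (SE 0.032; edgeR interaction over 6 libraries, adjusted p = 1.06e-47) and -0.69 for Fcgrt (SE 0.059; edgeR, adjusted p = 2.65e-19). Both kept their sign and call under every alternative setting that was run, with values of -0.58 and -0.40 by library size alone. Across all genes 39.7% were called in this comparison, and 5 of the 6 members were: 4 lower, against 17.9% of all genes, and 1 higher, against 21.8%. The calls of Fcgr4 (-0.17) and Fcer1g (-0.21) changed sign with library size alone, to 0.12 and 0.088. The call of Fcgr1 (0.11) ended in DESeq2 (0.02, adjusted p = 0.805). Fcgr3 was not called (-0.03; edgeR, adjusted p = 0.0529), and with library size alone its difference was 0.27 (edgeR, adjusted p = 3.09e-25). The spread in this test comes from the near-identical high repeats, since the low groups hold 1 library each.

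Ratios between receptor genes within a library need no scaling between libraries, and the 3 ratios over Fcgr2b moved in opposite directions in the experiments. They are ratios of the authors' FPKM values, which are per transcript length. Fcgr3 over Fcgr2b was 3.48 and 3.43 with NT and 2.72 and 2.70 with Satb1 siRNA in the high experiment. In the low experiment it was 1.21 with NT and 1.73 with Satb1 siRNA. The log2 change was -0.35 in the high (95% counting interval -0.37 to -0.32) and 0.51 in the low experiment (0.46 to 0.57). Fcgr1 over Fcgr2b was 0.420 and 0.413 with NT against 0.323 and 0.324 with Satb1 siRNA in the high experiment, and 1.86 against 2.90 in the low experiment. Its log2 changes were -0.37 (-0.40 to -0.33) and 0.64 (0.59 to 0.69). Fcgr4 over Fcgr2b went from 1.01 and 0.984 to 0.845 and 0.824 in the high experiment, and from 1.17 to 1.60 in the low experiment. The log2 changes were -0.26 (-0.29 to -0.22) and 0.46 (0.40 to 0.52). All 3 ratios of activating to inhibitory receptor were thus lower with Satb1 siRNA in the high experiment and higher in the low experiment. They share Fcgr2b as denominator. Fcgr1 over Fcgr3, which does not hold it, changed by -0.02 in the high (-0.05 to 0.01) and by 0.13 in the low experiment (0.09 to 0.17). The difference between the experiments in these ratios was not tested.

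**Figure D3:**
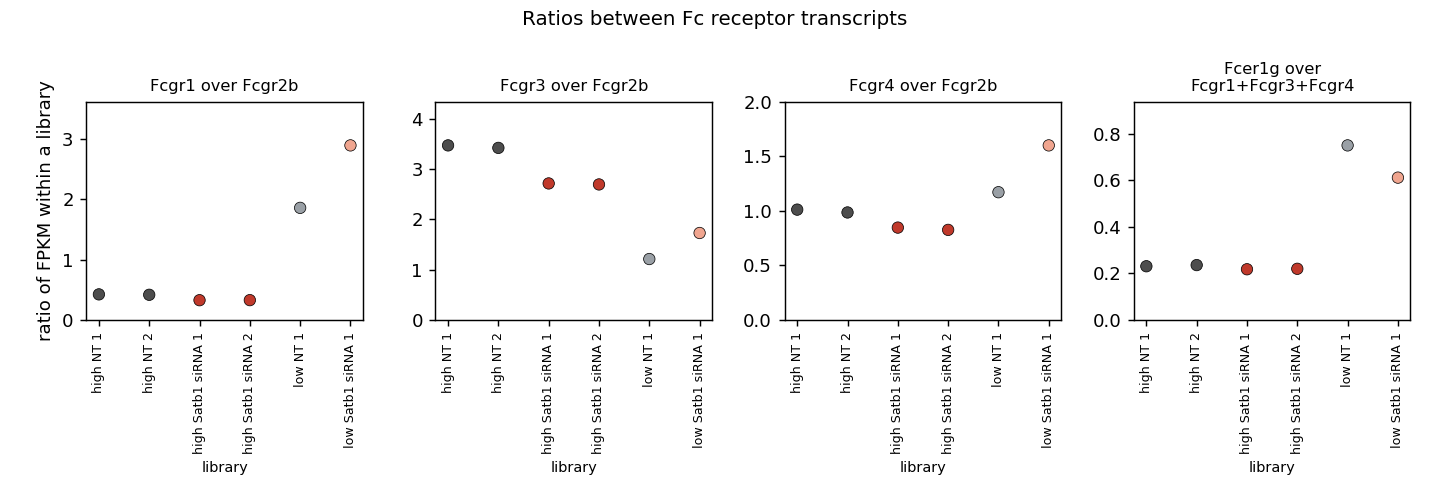
Ratio of FPKM between Fc receptor genes within each library, 1 point per library, with each vertical axis starting at 0 (dark grey and red: high NT and high Satb1 siRNA; light grey and pink: low NT and low Satb1 siRNA). The 3 ratios over Fcgr2b are lower with Satb1 siRNA in the high experiment and higher in the low experiment, while Fcer1g over its partner chains is 0.217 to 0.235 in all high libraries and 0.751 and 0.612 in the low ones.

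Fcgr2b and Fcgr3 are near copies over part of their length, which bears on the ratios that hold them. In GENCODE vM21 transcripts, 166 of the 1298 stretches of 50 bases in the longest coding transcript of Fcgr3 also occur in Fcgr2b (12.8%), and they make up 4.75% of those of Fcgr2b. No other pair of the 6 genes shared a stretch of that length. How the authors' counting divided such reads changes the individual values of Fcgr2b and Fcgr3. Summed into 1 feature, the pair had a log2 fold change of -0.28 in the high experiment (edgeR, adjusted p = 7.02e-50). Fcgr1 and Fcgr4 share no such stretch with Fcgr2b. Their ratios over Fcgr2b still depend on how reads were divided between Fcgr2b and Fcgr3. The summed pair was not computed for the low experiment. Annotated antisense genes overlap Fcgr2b (Gm38204) and Fcgrt (Gm45669), and small RNA genes lie within Fcgr3 (Mir6546) and Fcgr4 (Gm26110). No source used here says whether the counting used strand, so reads of an antisense partner cannot be told apart.

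The control libraries of the experiments held different sets of receptors. On the FPKM scale the order with NT siRNA in the high experiment was Fcgr3 (680 and 679), Fcer1g (221 and 224), Fcgr2b (195 and 198), Fcgr4 (198 and 195), Fcgr1 (82.1 and 81.8) and Fcgrt (53.6 and 54.9). Fcgr2b and Fcgr4 overlapped in this order, and all other neighbours were apart in both libraries. In the low NT library the order was Fcer1g (933), Fcgr1 (546), Fcgr3 (355), Fcgr4 (342), Fcgr2b (293) and Fcgrt (39.9). With Satb1 siRNA in the low experiment it was the same, at 760, 578, 344, 319, 199 and 40.1. In the high Satb1 siRNA libraries Fcgr2b (202 and 201) stood above Fcer1g (171 and 170) and Fcgr4 (171 and 166), and Fcgrt (72.0 and 70.7) above Fcgr1 (65.2 and 65.1), with Fcgr3 first at 551 and 544. In every library the 5 genes other than Fcgrt lay above at least 95.4% of the genes with an FPKM over 0, and Fcgrt above 89.4% or more.

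Fcgr3 supplied 58.9% and 58.8% of the summed FPKM of the 4 IgG-binding chains in the high NT libraries and 55.7% in both high Satb1 siRNA libraries. In the low experiment it supplied 23.1% and 23.9%. Fcgr1 supplied 7.11% and 7.09% with NT and 6.60% and 6.67% with Satb1 siRNA in the high experiment, and 35.5% and 40.1% in the low one. The inhibitory Fcgr2b supplied 16.9% and 17.2% with NT in the high experiment and 20.4% and 20.6% with Satb1 siRNA, 19.1% in the low NT and 13.8% in the low Satb1 siRNA library. Fcgr4 was the steadiest share, 16.9% to 17.3% in the high and 22.2% to 22.3% in the low libraries.

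**Figure D4:**
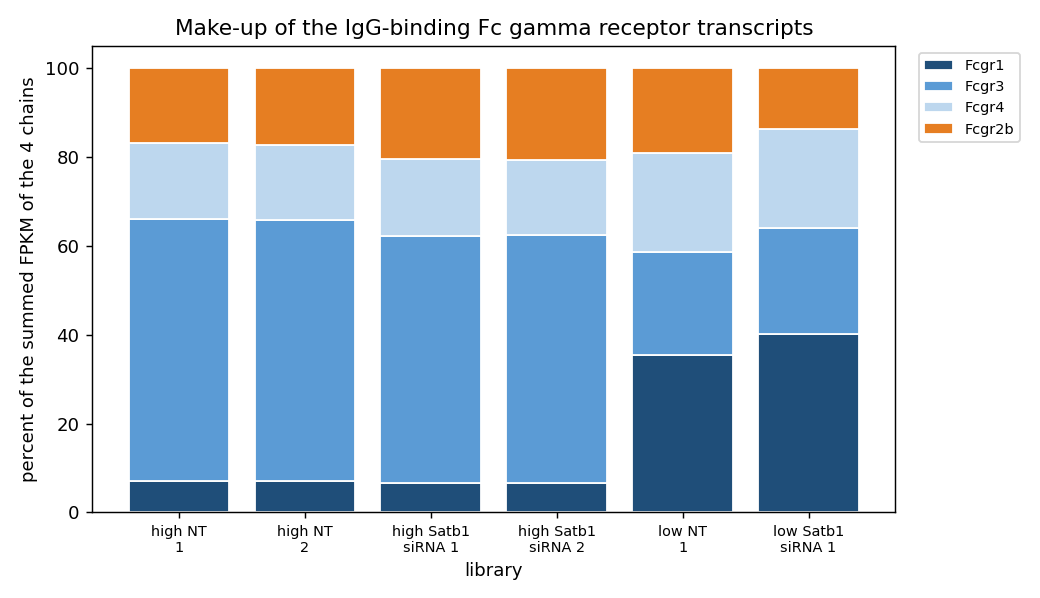
Share of each IgG-binding Fc gamma receptor gene in the summed FPKM of the 4 genes, 1 stacked bar per library. Fcgr3 holds 55.7% to 58.9% in the high libraries and 23.1% to 23.9% in the low ones, and Fcgr1 6.60% to 7.11% against 35.5% to 40.1%.

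Relative to the median gene, the low NT library exceeded the high NT libraries by 3.30 on the log2 scale for Fcgr1, 2.65 for Fcer1g, 1.39 for Fcgr4 and 1.09 for Fcgr2b. Fcgrt lay at 0.20 and Fcgr3 at -0.37, the lowest of the 6. By TMM-scaled CPM, the control level of Fcgr1 was 2050 CPM in the low experiment, and 197 and 196 CPM in the high one. A total of 4 of the 6 genes were at least 2-fold higher, against 25.8% of all genes, and 0 were at least 2-fold lower, against 22.4%. This comparison has 1 low library and no test, and with library size alone the values dropped by a shift common to all genes, Fcgr1 to 2.75, Fcer1g to 2.10, Fcgr4 to 0.84, Fcgr2b to 0.54, Fcgrt to -0.36 and Fcgr3 to -0.92. By that scaling 2 of the 6 were at least 2-fold higher. The share of all genes was not computed for it, and the 25.8% holds for TMM only. The experiments may differ in date, animals or handling, and these cannot be told apart from the experiment.

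The common gamma chain was more abundant, relative to the chains that need it, in the low than in the high experiment. Fcer1g over the sum of Fcgr1, Fcgr3 and Fcgr4 in FPKM, a ratio chosen after its values were seen, was 0.230 and 0.235 with NT in the high experiment, and 0.217 and 0.219 with Satb1 siRNA. In the low experiment it was 0.751 with NT and 0.612 with Satb1 siRNA. The log2 change with Satb1 siRNA was -0.09 in the high (95% counting interval -0.12 to -0.05) and -0.29 in the low experiment (-0.33 to -0.26). The transcript length implied by count and FPKM was 636 to 639 bases for Fcer1g in the high libraries and 649 and 650 bases in the low ones. It was 2620 to 2630 and 2640 to 2650 bases for Fcgr1, so the length correction hardly differed between the experiments. The size of the gap still depended on the measure. Between the NT libraries (low minus high) the log2 change of the ratio was 1.69 in FPKM and 1.31 in counts. With Fcgr1 left out of the partner chains, the change with Satb1 siRNA in the low experiment was -0.22.

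Counts of the gene lists in the high experiment are to be read against all genes tested, of which 33.2% fell and 32.8% rose. Of 24 genes of Fc receptor signalling, 16 fell, 1 rose (Gab2, 0.13, named after its value was seen; 3 rose with library size alone) and 7 were not called, with a median of -0.14. The falls included Lat2 (-0.51) and Sh3bp2 (-0.45), adaptor genes, and Vav1 (-0.30), an exchange factor for Rac. Syk, the kinase that binds the phosphorylated gamma chain and is listed as Sykb, fell by 0.25 on the log2 scale, and Lyn, which phosphorylates the receptor motifs, by 0.07, a call that ended with library size alone (-0.016; edgeR, adjusted p = 0.122). Of 13 genes of the opposing phosphatases, ligases and adaptors, 6 fell, 6 rose (3 in DESeq2) and 1 was not called, with a median of -0.03. The falls included Dok2 (-0.98), Dok1 (-0.58), Csk (-0.44) and Dok3 (-0.36), adaptors and a kinase that restrain these signals. Inpp5d, which encodes the SHIP phosphatase recruited by Fcgr2b, fell by 0.13, not called on the deposited FPKM (limma, adjusted p = 0.114), and Ptpn6, which encodes SHP-1, by 0.22.

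Of 14 genes listed as other receptors that pair with Fcer1g, 9 were matched and 8 tested. These 8 fell with TMM, with a median of -0.69, beside 33.2% of all genes. Cd300ld, named after its value was seen, fell by only 0.06. Between TMM and library size alone the median of all genes moved from 0.01 to 0.06. Gp6 (-1.53), also named afterwards, had 3 to 20 counts in a high library. The list holds the cytokine receptor subunits Csf2rb and Il3ra, whose pairing with Fcer1g was not tested here. Ncr1, matched but too low to test, had 2 and 4 counts with NT and 9 and 7 with Satb1 siRNA. Clec4e, which encodes the lectin Mincle, was at 118 and 118 CPM with NT and at 57.9 and 56.8 CPM with Satb1 siRNA in the high experiment, a log2 fold change of -1.04. In the low experiment it was at 1270 and 158 CPM. Pira6 (-0.88), Clec4n, which encodes Dectin-2 (-0.76), and Csf2rb, a cytokine receptor subunit (-0.62), were the next largest falls among those whose mean log2 CPM was at least 1. Of 13 other inhibitory receptors, 6 fell, 4 rose (2 in DESeq2) and 3 were not called (median -0.02). There Lilrb4 (-0.57), Cd300lf (-0.43), Siglece (-0.30) and Sirpa (-0.23) fell, of which Siglece was not called by DESeq2 (adjusted p = 0.131), and Pirb (0.02; edgeR, adjusted p = 0.811) was not called.

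Of 12 other genes of the Fc receptor family and its adaptors, 4 fell and 6 rose, with a median of 0.34. Fcrls (-0.57), Trim21, the cytosolic antibody receptor (-0.36), and Tyrobp, which encodes the DAP12 adaptor (-0.16), fell. So did Fcrlb (-1.44), named after its value was seen. Cd247, the zeta chain, rose by 0.40, and Pigr, the transport receptor for polymeric antibodies, by 0.46, although the authors' FPKM gave -0.03 for Pigr. The other rises were in Fcrl5 (1.62), Fcamr (1.23), Fcrl6 (1.04) and Fcer2a (0.28), named after their values were seen, all with at most 243 counts in a library. The receptor for IgE was at the limit of detection: Fcer1a had 2 to 7 counts and Ms4a2 0 to 10 counts in any library. B2m, the light chain partner of Fcgrt, was not analysed here.

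Of 20 genes induced by interferon gamma, a cytokine known to raise Fcgr1, 17 fell, against 33.2% of all genes, and 3 were not called (median -0.40). The falls included Cxcl10 (-1.31), Gbp2 (-0.83), Tap1 (-0.75) and Psmb8 (-0.71). In the NT libraries 19 of 19 of these genes were at least 2-fold higher in the low experiment, against 25.8% of all genes, with a median of 3.51 beside 0.08 for all genes. These values hold for TMM, and the count was not made with library size alone. Of 19 phagocytic receptor genes outside the Fc family, 8 fell, 8 rose and 3 were not called (median -0.01). They ranged from Itgax (-1.95), a complement receptor subunit, to the complement and scavenger receptor genes Cr2 (0.68), Cd163 (0.98) and Vsig4 (1.30). Of 14 listed antibody genes, which encode the ligands, 4 were matched. These summed to at most 1.61 CPM in the high libraries and to 1.08 CPM with Satb1 siRNA in the low experiment, but to 18.6 CPM in its NT library, where Ighg1 had 259 counts against 10 to 14 in the 5 others.

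**Figure D5:**
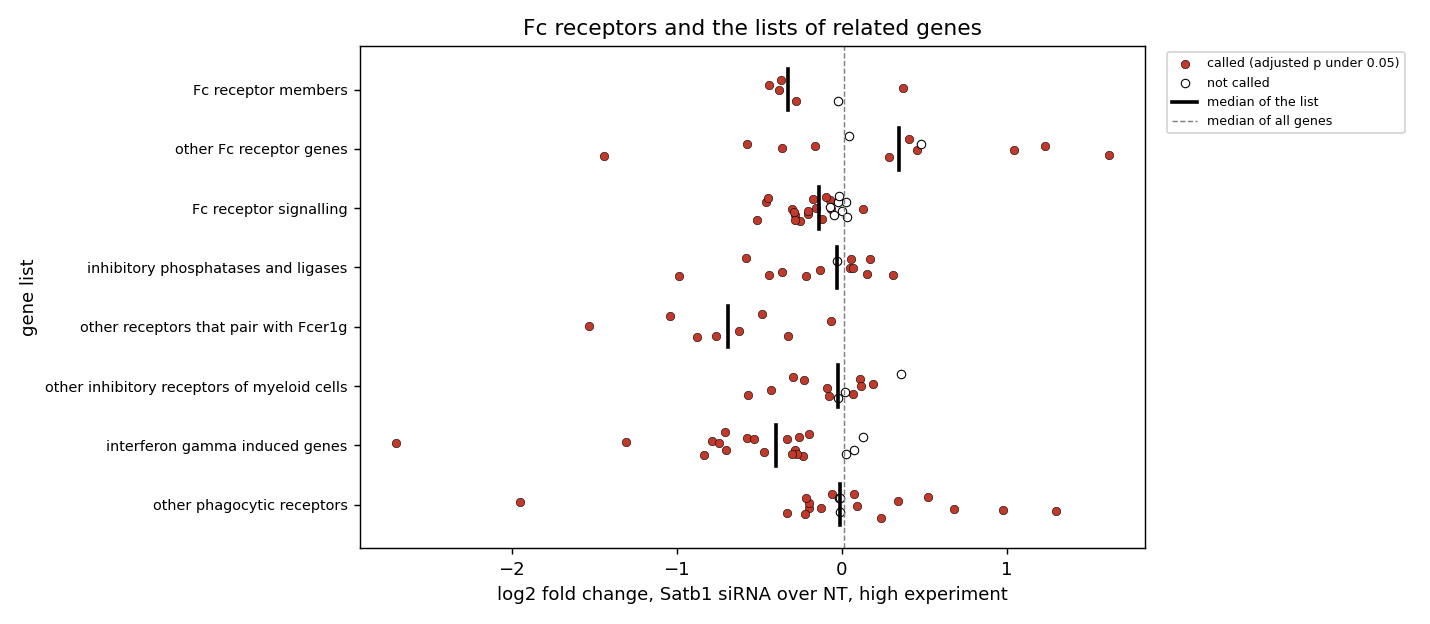
Log2 fold change in the high experiment for each tested gene of the Fc receptors and 7 lists of related genes; filled points were called at an adjusted p under 0.05, the black bar is the list's median and the dashed line the median of all genes (0.01). The genes listed as receptors that pair with Fcer1g lie wholly below 0 with TMM (median -0.69, the nearest to 0 at -0.06). The other inhibitory and phagocytic receptors lie on both sides.

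Markers of other cell types that carry Fc receptors are given beside these results, and their part in them was not tested. In the high experiment, where 4 receptor genes fell, single macrophage, monocyte and neutrophil markers went both ways. The sums of these and of the B cell markers were higher with Satb1 siRNA. The summed macrophage, monocyte and neutrophil markers were lower with it in the low experiment, as the 6 genes were with TMM. The 13 macrophage markers summed to 3110 and 3090 CPM in the high NT and 3190 and 3170 CPM in the high Satb1 siRNA libraries, and to 10300 (NT) and 6380 CPM (Satb1 siRNA) in the low experiment. With strong knockdown, 8 of the 13 rose, 4 fell and 1 was not called, and Csf1r rose by 0.10 while Cd68 fell by 0.46. Cd163, also among the 13, went from 318 and 317 CPM with NT to 620 and 624 CPM with Satb1 siRNA. That rise was larger than the rise of the sum. In the low experiment 7 of the 13 were at least 1.5-fold lower and 1 higher with TMM, against 12.2% and 15.5% of all genes. This count was not made with library size alone. The 11 neutrophil markers summed to 97.5 to 107 CPM in the high libraries, to 718 CPM in the low NT and to 301 CPM in the low Satb1 siRNA library. S100a8 went from 88.0 to 24.4 CPM in the low experiment and S100a9 from 130 to 35.5 CPM. Both rose in the high experiment, by 0.70 and 0.60. Of the 9 neutrophil markers tested there, 3 fell, 3 rose and 3 were not called. Cxcr2 rose by 0.37 and Mmp8 fell by 0.55.

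The 11 monocyte markers summed to 3950 and 3970 CPM in the high NT and to 4950 and 4940 CPM in the high Satb1 siRNA libraries, with 5 fallen, 5 risen and 1 not called. Chi3l3 alone went from 252 and 252 CPM with NT to 564 and 558 CPM with Satb1 siRNA there. Ly6c1 (-1.67), Vcan (-1.24) and Treml4 (-1.16) were among the falls. The monocyte markers summed to 5540 (NT) and 3600 CPM (Satb1 siRNA) in the low experiment. The 12 classical dendritic cell markers, most of whose CPM is H2-Ab1, summed to 251 and 251 against 174 and 169 CPM in the high, and to 2180 and 2410 CPM in the low experiment. Of the 12, 5 fell and 7 rose in the high experiment. A total of 8 of the 12 were at least 1.5-fold higher with Satb1 siRNA in the low experiment and 0 lower, against 15.5% and 12.2% of all genes (median 0.86), opposite to the receptors. In the NT libraries 11 of the 12 were at least 2-fold higher in the low experiment, against 25.8% of all genes. Zbtb46 passed that mark narrowly, at 1.01 on the log2 scale. The low and NT counts of this list hold for TMM only and were not made with library size alone. The 12 B cell markers, cells whose only IgG receptor is Fcgr2b, summed to 47.9 and 48.9 CPM with NT and to 69.1 and 68.3 CPM with Satb1 siRNA in the high experiment, and to 68.6 and 71.2 CPM in the low experiment. A total of 8 of 11 tested rose and 3 were not called, and DESeq2 called 5. Fcgr2b alone was at 263 CPM or more in every library, and the part of B cells in that level was not tested. The 7 natural killer markers summed to 6.52 to 8.82 CPM in the high and 135 and 117 CPM in the low libraries, where Klrk1 made up 127 and 108 CPM, and Ncr1 was at 1.13 CPM or less.

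The 10 mast cell and basophil markers summed to 1.74 to 2.62 CPM in the high libraries and to 49.7 and 28.0 CPM in the low ones, of which Hdc made up 47.6 and 25.3 CPM. The 8 endothelial markers summed to 10.2 to 14.1 CPM in the high libraries and to at least 73.0 CPM in the low ones, with 5 of 7 tested lower (3 in DESeq2), 1 higher and 1 not called. The 8 T cell markers summed to 41.3 to 54.5 CPM in the high and 38.2 and 32.6 CPM in the low libraries, with 5 of 8 tested higher and 3 not called. The 10 tumour and mesothelial markers summed to 897 and 901 CPM in the high NT, 993 and 985 CPM in the high Satb1 siRNA, 198 CPM in the low NT and 699 CPM in the low Satb1 siRNA library.

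The genes whose levels followed the members most closely were found by the distance between the 4 group means of log2 CPM, each gene centred on its own mean, among 7309 other genes whose mean log2 CPM was at least 4. The points are only 4 and share libraries, so that many genes lie close. Nearest to Fcgr1 were Ptms (distance 0.049) and H2-DMa (0.053), with 99 genes within 0.25. Nearest to Fcer1g were Cfp (0.034), the gene of properdin, and Syvn1 (0.039), with 244 genes within 0.25. For Fcgr2b they were Rffl (0.048) and Rpl24 (0.049), for Fcgr4 G9a (0.021) and Got1 (0.025), for Fcgr3 Ndufv3 (0.031) and Ptpn2 (0.033), and for Fcgrt S100a13 (0.033) and Reep3 (0.046), with 550 to 1277 genes within 0.25. Fcgr1 and Fcer1g thus had the fewest close neighbours among the 6.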

How the data were processed

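RNA-seq of total RNA was measured in 6 libraries (TruSeq Stranded Total RNA kit, per the labels' protocols). The deposited table holds FPKM values and estimated counts per gene, per the file headers. RSEM 1.2.12, DESeq2 and the build mm9 are named in the submitters' processing notes. No source used here states the aligner, filters or use of strand. The counts were taken for RSEM's expected counts, and 0 of them were not whole. The deposited FPKM, made by the authors per transcript length and library size, served for levels between genes and for ratios.

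The main test was edgeR 4.0.16 (R 4.3.3), quasi-likelihood, robust, two-sided, with TMM, filterByExpr and Benjamini-Hochberg adjustment (threshold 0.05) over all genes, fitted to the 4 high libraries. The difference between experiments was an interaction over 4 group means. Low and NT ratios used TMM over 6 libraries, with exact 95% intervals for the members and a prior count of 2 for other genes. DESeq2 1.42.0, limma 3.58.1 (log2 of FPKM plus 0.1) and the other settings named in the closing section were alternatives. A count of 0 allows 3 counts, or 0.0421 to 0.122 CPM. The fits were tested on simulated counts whose spread was as small as that between the high repeats. Such counts cannot show how the fits behave with spread between animals or experiments.

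Members, 18 gene lists (218 of 240 entries matched, 6 by an older symbol) and tests were chosen with earlier results of these data known. Genes were named by a rule: the members, the 4 largest called changes of each list at a mean log2 CPM of at least 1, fixed genes, and the 2 nearest profiles of each member, other than those said to be chosen later. A gene that the rule names is not reported here.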

Additional observations from a re-analysis of the deposited data

Results flagged for a closer look

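The siRNA effect differed between the experiments (low minus high, log2, edgeR interaction with TMM scaling) by -0.88 for Fcgr2b, -0.69 for Fcgrt, -0.21 for Fcer1g, -0.17 for Fcgr4 and 0.11 for Fcgr1. The low effect rests on 1 library per siRNA. Every ratio of an activating receptor over Fcgr2b went down in both high Satb1 siRNA libraries against both high NT libraries and up in the low experiment. The changes differed by 1.01 for Fcgr1, 0.86 for Fcgr3 and 0.71 for Fcgr4 on the log2 scale (low minus high), and these differences were not tested. They do not depend on how libraries are scaled.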

How the results depend on the processing

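Depth did not limit the members, with at least 1700 counts each in every library. In the high experiment the calls of Fcgr1, Fcgr3, Fcgr4, Fcer1g and Fcgrt held with library size alone, DESeq2, no filter, 4 group means, the deposited FPKM and each library left out. They ended with repeats summed and the experiment as a term (log2 -0.33, -0.39, -0.37, -0.55 and 0.029). That fit called 0 members lower and 0 higher, and 6 genes lower and 0 higher over all genes; it has 4 samples. Fcgr2b became called with no filter (-0.026), with 4 group means (-0.027), and with Fcgr3 summed (-0.28). It turned to 0.033 with library size alone and 0.035 with FPKM, each giving 2 members higher. Without each library in turn, its log2 fold change was -0.038 to -0.017, and it was called without high NT replicate 1. Low ratios with library size alone were 0.081 (Fcgr1), -0.55 (Fcgr2b), -0.048 (Fcgr3), -0.10 (Fcgr4), -0.30 (Fcer1g) and 0.032 (Fcgrt). With FPKM they were 0.082, -0.56, -0.046, -0.10, -0.30 and 0.0079. The NT ratios (low over high) were 2.75, 0.54, -0.92, 0.84, 2.10 and -0.36 with library size alone and 2.73, 0.57, -0.94, 0.80, 2.07 and -0.44 with FPKM. These move with all genes, whose median went from -0.06 to 0.30 (low) and from 0.08 to -0.55 (NT). The difference between experiments for Fcgr3 was 0.27 with library size alone, -0.028 with no filter and -0.12 in DESeq2, all called; without each high library it was -0.048 to -0.022, called in 3 of 4 cases. For Fcgr4 and Fcer1g it turned to 0.12 and 0.088 with library size alone, and for Fcgr1 the call ended in DESeq2 (0.020). Among the other named genes, the fit with repeats summed turned the sign of Csf1r (-0.38), S100a8 (-0.58), S100a9 (-0.65), Chi3l3 (-0.27), Cxcr2 (-0.013), Xcr1 (0.25), Cd79b (-0.10), Krt7 (0.62), Rpl24 (-0.37) and Reep3 (-0.0030), and FPKM that of Pigr (-0.035). DESeq2 moved list counts of rises from 6 to 3 (phosphatases), 4 to 2 (inhibitory receptors) and 8 to 5 (B cell), and of falls from 5 to 3 (endothelial), 2 to 1 (mast cell) and 1 to 0 (natural killer). Library size alone moved rises from 1 to 3 (signalling) and 0 to 1 (interferon gamma). With a replicate block, Fcgr3 was at -0.37 and Fcgr2b at -0.021, and no call of a named gene changed. Same-numbered repeats did not deviate together (r = -0.0161 over 12269 genes). Apart from the scalings named, causes were not tested.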
